A study of Mus musculus with 6 samples.

Results

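The genes of plasminogen activation were followed through 6 RNA-seq libraries of the mouse thymoma cell line 427.1.86 (427 cells). They were taken by gene name and number 5: Plau, the urokinase-type plasminogen activator, Plaur, its cell surface receptor, Plat, the tissue-type activator, and the serpins Serpine2 (protease nexin-1) and Serpinb2 (plasminogen activator inhibitor type 2). The deposited files list 25001 loci, of which 22601 carry a gene symbol. Of the 5 genes, 4 have an entry of their own, and 3 of them (Plau, Plaur and Plat) reached 1 FPKM in some library. FPKM counts sequenced fragments relative to exon length in kilobases and to the size of the library, a scaling done by the authors. Levels are set side by side on this scale, and ratios between libraries depend on how the libraries were scaled. Serpinb2 has no entry under its own symbol, and its gene lies inside a locus that carries another name, as described further on.

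Each condition has 1 library. The 427 cells stably carried the empty pSUPER vector and were kept without serum for 2 h before 2 h of treatment with DMSO or 1 µM PMA. PMA is a phorbol ester known to activate protein kinase C and to induce ectodomain shedding. The remaining libraries are labelled SPPL2b KD (called SP2bKD here), and SPPL2b is the intramembrane protease that releases the intracellular domain (EICD) of epithin/PRSS14. One was treated with DMSO and one with 1 µM PMA for 2 h after 2 h without serum. Whether the DMSO library labelled SP2bKD was also kept without serum is not given in the labels, so PMA and serum may not be separable in this line. The others come from cells transfected with a GFP vector alone or with the GFP vector and Flag-tagged EICD. According to the methods, transfected cells were of the clone SP2bKD-10, which stably expresses an shRNA against SPPL2b, and GFP-positive cells were sorted after 24 h. The labels name an siRNA in place of an shRNA and give no clone for the untransfected libraries.

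By an estimate from the steps of the lowest FPKM values, the libraries hold about 24350000 to 29550000 fragments, and 10555 to 10873 loci reached 1 FPKM. The agreement of this estimate with whole fragments (mean cosine, 1 at best) was 0.302 to 0.437, from 370 to 457 genes per library. Estimated fragments and counting intervals rest on it. Loci with very high values dominated, as the 10 largest took 85.6% to 94.2% of the FPKM sum of a library, so the sum itself differed up to 2.37-fold between libraries. Sppl2b, the targeted gene, had an FPKM of 9.90 and 6.86 in 427 cells with DMSO and PMA and of 9.37 to 13.4 in the 4 libraries labelled SP2bKD, which is not the direction of a knockdown, and the label is therefore used only as a name. Its level does not show whether the protein was reduced. All 6 epithelial markers (Epcam, Cdh1, Krt8, Krt18, Krt5 and Krt14) were at 1 or more, with summed FPKM from 6321 to 15017. None of the 6 T cell markers reached 1 in any library, and Cd3e, Cd3d and Cd4 were listed at 0 throughout. No marker of fibroblasts (5 genes) or endothelial cells (3 genes) reached 1, whereas Csf1r and Cd68 did among the 4 macrophage markers, with a summed FPKM of 4.45 to 8.66 over that list and Adgre1 at 0. The part of these markers in the results was not tested.

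Plasminogen is a circulating zymogen that is cut to the protease plasmin by urokinase or by tissue-type plasminogen activator. Urokinase is secreted as an inactive single chain, is held at the cell surface by its GPI-anchored receptor, and is activated there by plasmin and by other proteases, among which matriptase (epithin/PRSS14, gene St14) is known. Serpins of clades B and E block the activators by forming a covalent complex, which cells clear through receptors of the LDL receptor family. Plau and Plaur are well-known targets of protein kinase C and AP-1 signalling in epithelial cells, and their products take part in pericellular proteolysis, migration and wound repair.

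The stretches of sequence below are shown because they lie before the gene with the largest PMA ratio of the group and before the gene that the files do not list under its own name. RefSeq promoter windows on GRCm38.p6 were found for Plaur, Serpinb2 and Serpine2. Each sequence gives the 250 bases before the annotated start (for Serpinb2 the first of its starts), 5′ to 3′ on the coding strand, and capitals mark a match to the AP-1 motif TGANTCA.
Plaur, chr7:24462233-24462482, plus strand: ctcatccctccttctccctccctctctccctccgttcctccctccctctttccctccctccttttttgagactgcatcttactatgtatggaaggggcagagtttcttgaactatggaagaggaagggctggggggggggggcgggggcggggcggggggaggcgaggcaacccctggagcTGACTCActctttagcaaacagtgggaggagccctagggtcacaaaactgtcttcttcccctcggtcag
Serpinb2, chr1:107511173-107511422, plus strand: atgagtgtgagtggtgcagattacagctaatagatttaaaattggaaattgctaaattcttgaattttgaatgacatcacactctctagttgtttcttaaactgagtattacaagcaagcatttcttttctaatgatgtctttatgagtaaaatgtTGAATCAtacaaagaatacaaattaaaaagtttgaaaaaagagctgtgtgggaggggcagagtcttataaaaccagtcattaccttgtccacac

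The match in Plaur is TGACTCA, from 69 to 63 bases before the start, and that in Serpinb2 is TGAATCA, from 94 to 88 bases before the start. TGANTCA, searched on both strands, occurred in 6.75% of 32851 promoter windows of the same length, and the window of Serpine2 held none. The cyclic AMP response element TGACGTCA was in none of the 3 windows and in 1.55% of all. The SP1 motif GGGCGG was found 3 times before Plaur, 6 times before Serpine2 and not before Serpinb2, and in 32.7% of all windows at least once. None of the AP-1 matches overlapped another motif. These matches describe letters and not bound sites. The Plaur locus as the authors assembled it starts at 24461569 on chromosome 7, upstream of the whole window and of the annotated start at 24462484.

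AU-rich elements in the 3′ end of an mRNA are known to speed its decay. The nonamer TTATTTATT (as DNA, coding strand only) was searched in the 3′ untranslated part of the longest coding transcript of each gene in GENCODE M21. It was found once in Serpinb2, shown here in capitals with the bases around it, and in none of Plau, Plaur, Plat and Serpine2.
Serpinb2, chr1:107525197-107525226, plus strand: ttttacagtgTTATTTATTgtttatataat
Of 2244 genes with a 3′ part within 20% of the length of that of Serpinb2, 3.83% held the nonamer. The core ATTTA occurred 5 times in Serpinb2, a number reached by 3.16% of these genes, and 2 times in each of Plau, Plaur and Plat. It did not occur in Serpine2.

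Plau lies on chromosome 14 from 20836662 to 20843388 (plus strand, annotated gene model). Its FPKM was 28.5 in 427 cells with DMSO and 78.6 with PMA, 24.8 and 38.2 in the libraries labelled SP2bKD with DMSO and PMA, 37.3 with GFP alone and 37.8 with GFP plus EICD. The 427 library with PMA was therefore the highest by a wide margin, and the PMA library labelled SP2bKD and both transfected libraries were close to each other. On a coding transcript of 2342 bases these levels correspond to an estimated 1502 to 5170 fragments. For such estimates, 95% counting intervals of a ratio (exact binomial) are given, which cover counting error only and not the variation between cultures.

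Plaur lies on chromosome 7 from 24461569 to 24475968 (plus strand, annotated gene with newly assembled isoforms). Its FPKM was 24.1 in 427 cells with DMSO and 231.9 with PMA, 13.3 and 116.5 in the libraries labelled SP2bKD with DMSO and PMA, 25.6 with GFP alone and 28.0 with GFP plus EICD. Both PMA libraries were above each of the other 4 libraries, with 1 library per condition. The receptor and its ligand changed order with PMA on the FPKM scale. The level of Plaur was 0.844 times that of Plau in 427 cells with DMSO and 2.95 times with PMA, and 0.539 and 3.05 times in the libraries labelled SP2bKD. In the transfected libraries this ratio of levels was 0.685 with GFP and 0.740 with GFP plus EICD, as in the DMSO libraries below 1.

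Plat lies on chromosome 8 from 22757724 to 22782847 (plus strand). Its FPKM was 1.02 in 427 cells with DMSO, 1.85 with PMA, 1.03 and 1.39 in the libraries labelled SP2bKD with DMSO and PMA, 1.60 with GFP and 2.80 with GFP plus EICD. It was the lowest of the 3 expressed genes in each library, from 13.5 to 42.5 times below Plau, and rested on an estimated 67.5 to 184.2 fragments. Its highest library was the one with EICD, in contrast to Plau and Plaur, which were highest in 427 cells with PMA.

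**Figure D1:**
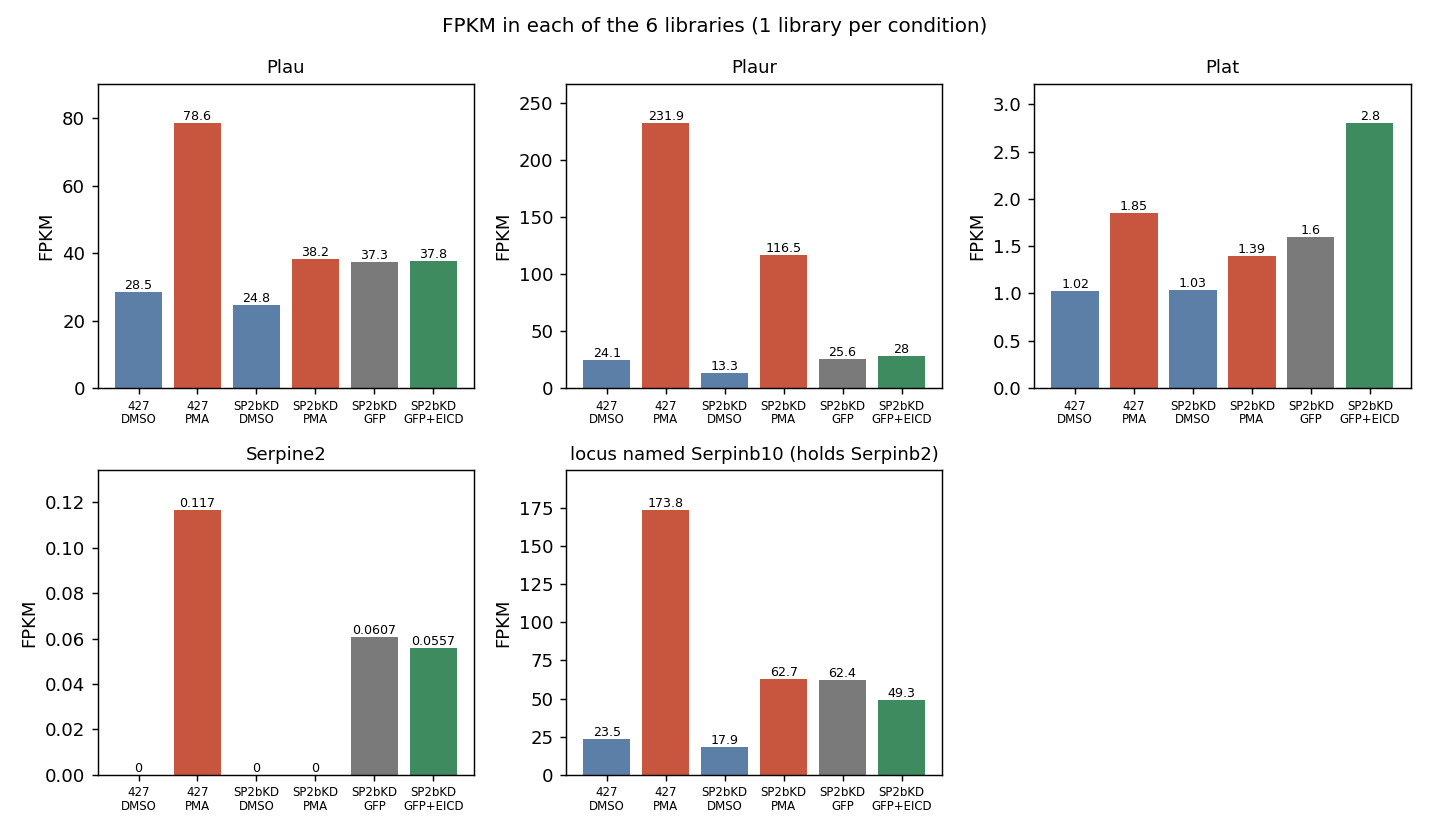
Bars give the FPKM (linear axis from 0, a separate scale for each panel) of Plau, Plaur, Plat, Serpine2 and the locus named Serpinb10 in each of the 6 libraries, with 1 library per condition and no error bar. Plaur reached 231.9 and 116.5 in the PMA libraries against 13.3 to 28.0 elsewhere, and the highest Plat value was 2.80 with GFP plus EICD.

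The comparison of PMA with DMSO asks which genes differed under conditions that induce shedding. All 3 expressed genes were higher with PMA in both lines, Plaur by the largest fold. In 427 cells Plaur was 9.64-fold higher with PMA (log2 ratio 3.27, counting interval 3.17 to 3.37) and ranked at 46 from the top of 10643 named loci that reached 1 FPKM in either of those libraries. Plau was 2.75-fold higher (log2 ratio 1.46, interval 1.38 to 1.54) and ranked at 219. Plat had a log2 ratio of 0.85 (0.43 to 1.31), below a 2-fold difference. Thus 2 of 3 passed a 2-fold difference upwards and none downwards. Among all loci measured, 3.91% were more than 2-fold higher and 4.67% lower, or 8.58% in either direction. The median log2 ratio of all loci was -0.12.

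In the libraries labelled SP2bKD, Plaur was 8.73-fold higher with PMA (log2 ratio 3.13, interval 2.998 to 3.26) and ranked at 43 of 10624 loci. Plau was 1.54-fold higher (log2 ratio 0.63, interval 0.53 to 0.72) and Plat 1.34-fold (0.43, interval -0.01 to 0.91). So 1 of the 3 genes was more than 2-fold higher, where 3.51% of all loci were, and none more than 2-fold lower, where 5.69% were (9.21% in either direction). The log2 ratio of Plau was 0.84 lower than in 427 cells, that is -0.84 for SP2bKD minus 427 (95% counting interval -0.95 to -0.72), or -0.55 with each library scaled to the same FPKM sum. For Plaur this difference was -0.14 (-0.30 to 0.02), or 0.14 with that scaling, and for Plat it was -0.42 (-1.03 to 0.19), or -0.11. The intervals of these differences use a normal approximation from the estimated fragments, not the exact binomial. Those of Plaur and Plat include 0 and that of Plau does not. Over 10845 loci it was between -0.60 and 0.50 for the middle 90%. With 1 library per condition the difference between the lines was not tested against the variation between cultures. It also uses the SP2bKD library with DMSO, whose serum conditions are not given, so line and serum may not be separable in it.

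**Figure D2:**
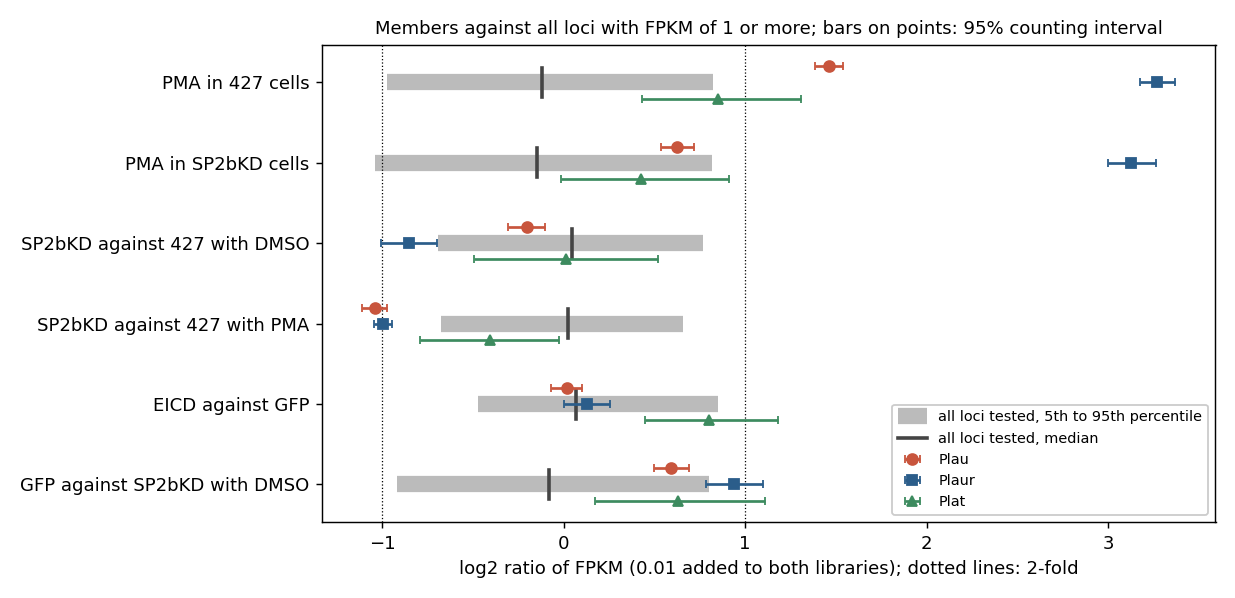
Points give the log2 ratio of FPKM (horizontal axis, 0.01 added to both libraries) of Plau, Plaur and Plat in the 6 comparisons (vertical axis), with 95% counting intervals. Grey bars span the 5th to the 95th percentile of all loci tested and the dark tick is their median. Plaur lies at 3.27 and 3.13 in the PMA comparisons, and Plau at -1.04 and Plaur at -0.99 for SP2bKD against 427 with PMA.

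Comparison of the lines asks whether levels differed with the SP2bKD label. Serum conditions of the SP2bKD library with DMSO are not given, so with DMSO the label and serum may not be separable. With DMSO, Plaur was lower in the library labelled SP2bKD, with 13.3 against 24.1 FPKM and a log2 ratio of -0.85 (interval -1.01 to -0.70). Plau differed by -0.20 (-0.30 to -0.10) and Plat by 0.02, with an interval of -0.49 to 0.52 that leaves room for a difference in either direction. At -0.03 and -0.04 after scaling to the same upper quartile and by the median ratio, Plat has no stable direction here. None of the 3 genes was more than 2-fold apart, where 5.87% of all loci were (3.11% higher and 2.76% lower). With PMA, Plau had a log2 ratio of -1.04 (-1.11 to -0.97) and Plaur of -0.99, and Plat of -0.41. Plau alone was more than 2-fold lower, where 2.75% of 10518 loci were (2.19% were higher and 4.93% in either direction), and Plaur was just inside that threshold at 1.99-fold. These directions depend on the scaling chosen. Scaled to the same upper quartile, the ratios of Plau, Plaur and Plat with PMA were -1.06, -1.02 and -0.43. Scaled by the median ratio they were -1.07, -1.02 and -0.435. With DMSO, Plau and Plaur were at -0.25 and -0.90 by the upper quartile and at -0.26 and -0.90 by the median ratio. Scaling to the same FPKM sum, which a few very large loci set, gave positive ratios. Plau, Plaur and Plat were then at 0.21, 0.25 and 0.79 with PMA and at 0.76, 0.12 and 0.90 with DMSO. The ratios of other genes between the lines that are given further on rest on the scaling in the same way. Those with DMSO share the limit on serum. Since Sppl2b was not lower in the libraries labelled SP2bKD, no direction is drawn from these ratios for the knockdown.

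EICD against GFP is the comparison made to find genes that respond to the free intracellular domain. Plau and Plaur were nearly level between these libraries. The log2 ratio of Plau was 0.02 (interval -0.07 to 0.10), or -0.07, -0.02 and -0.16 when scaled to the same upper quartile, by the median ratio or to the same FPKM sum, and its FPKM was 37.3 with GFP and 37.8 with EICD. That of Plaur was 0.13 (0.00 to 0.26), or -0.05 with that scaling. Plat was the exception among the 3 genes, 1.75-fold higher with EICD (log2 ratio 0.80, interval 0.45 to 1.18), and ranked at 604 of 10687 loci. Its counting interval lies above 0 and includes a 2-fold difference. None of the 3 genes was more than 2-fold higher or lower, where 3.55% of all loci were higher and 0.524% lower, together 4.07%.

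The GFP library and the library labelled SP2bKD with DMSO differ in transfection, sorting and DMSO at once, and these cannot be told apart. The serum conditions of both and the clone of the untransfected library are not given in the labels, so these may differ too. All 3 expressed genes were higher in the GFP library, with log2 ratios of 0.59 for Plau, 0.94 for Plaur and 0.63 for Plat. None passed 2-fold, where 3.56% of loci were more than 2-fold higher, 4.14% lower and 7.69% either. For Plaur the interval, 0.78 to 1.10, included a 2-fold difference. The GFP library therefore had a Plaur level of 25.6, close to the 24.1 of 427 cells with DMSO and above the 13.3 of the library labelled SP2bKD with DMSO.

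Serpine2, which inhibits urokinase and thrombin outside the cell, lies on chromosome 1 from 79794197 to 79861180 (minus strand). It was listed at 0 in 427 cells with DMSO and in both untransfected libraries labelled SP2bKD, at 0.117 FPKM in 427 cells with PMA, at 0.0607 with GFP and at 0.0557 with GFP plus EICD. The highest of these is an estimated 7.24 fragments. No fold is given against libraries at 0, and Serpine2 was left out of the counts of the comparisons because it was below an FPKM of 1 in all libraries.

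Serpinb2, a mostly intracellular serpin that inhibits urokinase, is annotated on chromosome 1 from 107511423 to 107535478 (plus strand). The authors' assembly merged this region into 1 locus from 107500926 to 107560783 on the same strand, which they named Serpinb10 and which contains the whole of Serpinb2 and the whole of Serpinb10 (107529003 to 107549271). The fragments of both genes cannot be told apart in this value. The FPKM of the merged locus was 23.5 in 427 cells with DMSO and 173.8 with PMA, 17.9 and 62.7 in the libraries labelled SP2bKD with DMSO and PMA, 62.4 with GFP and 49.3 with GFP plus EICD. The 427 library with PMA was again the highest, and both DMSO libraries were the lowest. The locus was 7.38-fold higher with PMA in 427 cells and 3.51-fold in the libraries labelled SP2bKD, at ranks 59 and 125, and the log2 ratio of SP2bKD to 427 was -0.40 with DMSO and -1.47 with PMA. In the GFP library it was 3.49-fold above the library labelled SP2bKD with DMSO, and EICD against GFP gave a log2 ratio of -0.34.

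**Figure D3:**
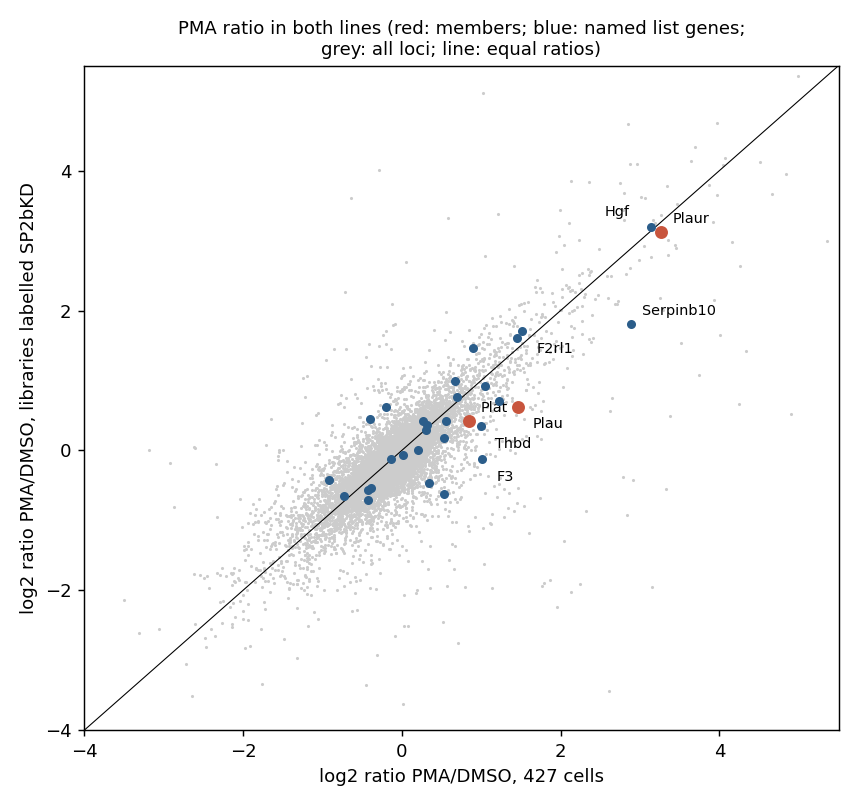
Each point is a locus, with its log2 ratio of PMA to DMSO in 427 cells on the horizontal axis and in the libraries labelled SP2bKD on the vertical axis. Grey points are the 10845 named loci that reached 1 FPKM in any of these libraries (42 lie outside the axes), red points are Plau, Plaur and Plat, and blue points are other genes of both lists. Plaur lies close to the line of equal ratios, whereas Plau, Thbd, F3 and the locus named Serpinb10 lie below it.

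The other genes of the plasminogen system were described with a list of 27, all of which have an entry. Of these, 15 reached 1 FPKM in some library and 7 were below 0.1 in all. Plg, which encodes plasminogen, and Cpb2, a plasma carboxypeptidase that slows fibrinolysis, were listed at 0 in all 6 libraries. Plasminogen receptors were abundant, with S100a10 between 295.2 and 545.8 FPKM and its partner Anxa2 between 321.1 and 533.4, and neither was 2-fold apart in any comparison. Plgrkt, the plasminogen receptor with a C-terminal lysine, was between 18.3 and 37.2. Integrin subunits that pair with the urokinase receptor were led by Itgb1, at 352.3 to 702.1, while Itgb3 did not exceed 0.206. Lrp1, which clears complexes of activator and serpin, had its lowest FPKM, 6.93, in 427 cells with PMA and its highest, 28.96, with GFP plus EICD, with log2 ratios of -0.92 and 0.89 in those comparisons.

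With PMA, 3 of the 15 genes measured were more than 2-fold higher in 427 cells and 2 of 15 in the libraries labelled SP2bKD, and none was more than 2-fold lower in either. Over all loci, 3.91% and 3.51% were higher and 4.67% and 5.69% lower. The median log2 ratio was 0.32 and 0.18, beside -0.12 and -0.15 for all loci. Those higher in both lines were Hgf and F2rl1. Hgf, a growth factor of the plasminogen family, was at 0.409 and 0.318 FPKM with DMSO and at 3.68 and 2.99 with PMA. F2rl1, which encodes protease-activated receptor 2, went from 87.2 and 80.4 with DMSO to 249.1 and 262.1 with PMA. F3, the gene of tissue factor, was the other one in 427 cells, with 21.7 and 43.7 FPKM against 17.8 and 16.3 in the libraries labelled SP2bKD. In 427 cells F3 was just past the threshold, at 2.02-fold (log2 ratio 1.01, interval 0.91 to 1.12). Thbd, which encodes thrombomodulin, was at 39.6 and 78.8 in 427 cells and at 30.8 and 39.3 in the latter. F3 and Thbd were the 2 genes of the list that were more than 2-fold lower in the library labelled SP2bKD with PMA than in 427 cells with PMA, where 2.75% of all loci were.

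With EICD, 2 of 13 measured genes of the list were more than 2-fold higher and none lower, where 3.55% of all loci were higher and 0.524% lower. The median log2 ratio was 0.16 beside 0.07 for all loci. Of the 13, 7 were above 0 and 6 below. The lowest were S100a10 (-0.53, rank 392 from the bottom of 10687 loci) and Anxa2 (-0.44, rank 641). The genes past 2-fold were Mst1, at 2.42 FPKM with GFP and 5.80 with EICD, and St14, at 69.6 and 614.5. St14 is no independent result here, because the transfected construct carries the start of its coding sequence. Mst1 did not pass 2-fold with 1 FPKM added to both libraries. Without EICD, St14 was between 69.6 and 105.4 FPKM in all 5 libraries. In SP2bKD against 427 with DMSO, 1 of 14 was more than 2-fold higher and none lower, where 3.11% of all loci were higher and 2.76% lower. The gene was Serpini1 (neuroserpin), at 1.98 FPKM in the library labelled SP2bKD and 0.701 in 427 cells.

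Among the other serpins, 57 symbols were listed, 14 reached 1 FPKM and 32 were below 0.1 in all libraries. Serpini1 belongs to both lists. The locus named Serpinb10 is counted among the other serpins, although its value can come from Serpinb2. With PMA, 4 of 13 measured serpins were more than 2-fold higher in 427 cells and 3 of 13 in the libraries labelled SP2bKD, and none was more than 2-fold lower. Of all loci, 3.91% and 3.51% were more than 2-fold higher. The medians were 0.67 and 0.71, beside -0.12 and -0.15 for all loci. Serpinb9, an inhibitor of granzyme B, was at 16.3 and 14.8 FPKM with DMSO and at 44.5 and 44.9 with PMA. With Serpinb9 and the locus named Serpinb10, the genes past 2-fold were Serpinb6b and Serpinb9b in 427 cells and Serpinb1a in the libraries labelled SP2bKD. Serpinb5 (maspin) and Serpinb6a, the most abundant clade B genes with DMSO, had PMA log2 ratios between -0.14 and 0.21. Clade B and Serpina3 genes have close paralogs, and fragments can be split between them.

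In the GFP library 5 of 14 measured serpins were more than 2-fold higher than in the library labelled SP2bKD with DMSO, and 2 were more than 2-fold lower, where 3.56% of all loci were higher and 4.14% lower. The 5 were Serpina3g, Serpina3i, Serpinb1b, Serpinb8 and the locus named Serpinb10, and the 2 were Serpinf1 and Serpini1. Serpina3i was at 44.9 FPKM in the latter library, at 218.4 with GFP and at 277.2 with GFP plus EICD. With EICD, Serpina3b (1.02 and 2.32 FPKM) and Serpinf1 (0.522 and 1.10) were the 2 of 13 past 2-fold, both higher, where 3.55% of all loci were higher and 0.524% lower. Neither passed 2-fold with 1 FPKM added to both libraries. The median of the 13 was -0.22, beside 0.07 for all loci.

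**Figure D4:**
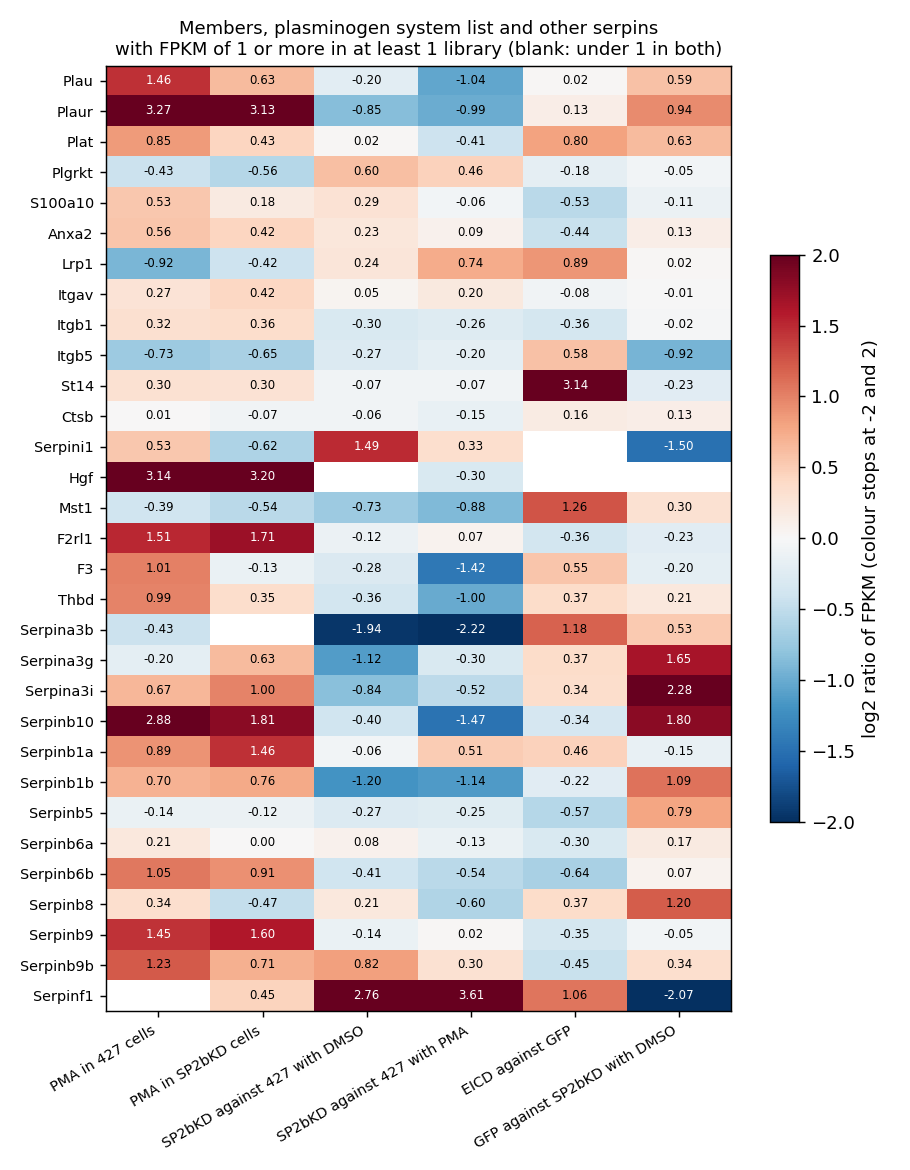
Each cell gives the log2 ratio of FPKM (0.01 added to both libraries) of a gene in 1 of the 6 comparisons, in red where the first-named condition is higher and in blue where it is lower, and is blank where both libraries were below an FPKM of 1. The genes are Plau, Plaur and Plat, then the plasminogen system list and the other serpins that reached 1 FPKM in some library. The PMA columns hold 3.27 and 3.13 for Plaur and 3.14 and 3.20 for Hgf.

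The loci with the nearest pattern over the 6 libraries were found by the root mean square difference of log2 FPKM after centring each on its own mean. For Plau they were Sdcbp2 (syntenin-2) at 0.11, Vps37b (a subunit of the ESCRT-I complex) at 0.15 and Fam110c at 0.18, where the median over 11061 loci was 0.63. For Plaur they were Sh2d5 at 0.36, Kctd11 at 0.37 and Oaf at 0.39, with a median of 1.52. This difference is larger for a gene with a wider range of its own, so its size is not compared between Plau, Plaur and Plat. For Plat they were Btbd19 at 0.10, a locus named pol at 0.15 and Slc26a11 at 0.16, with a median of 0.58. The 6 points share the libraries and their scaling, and the likeness is a description only.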

How the data were processed

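RNA of 6 libraries was sequenced as 100-base paired-end reads from poly(A)-selected RNA. The authors aligned the reads with Tophat 2.1.1 and computed FPKM with Cufflinks 2.1.1 and Cuffdiff 2.1.1, and they deposited 1 FPKM value per locus and library. The labels' processing notes name GRCm38 and also STAR 2.4.0b, with no role. Gene models include newly assembled isoforms, so neighbouring genes can be merged into 1 locus. Counts were not analysed here.

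From the deposited FPKM, log2 ratios were computed with 0.01 added to both libraries, so that all 6 comparisons share a scale. Named loci that reached 1 FPKM in either library were counted as past 2-fold or not. No p-value was computed, because each condition has 1 library. Depth was estimated from genes with a single transcript over 2500 bases, as the number of fragments at which their lowest FPKM came closest to whole fragments, and fragments per gene from the longest coding transcript. Sequencing depth sets the counting intervals, which leave out variation between cultures. The calculations were tested on simulated counts with known transcript lengths, which cannot show how well the depth holds for loci with several isoforms. Python 3.11.15, NumPy 2.4.6, pandas 2.3.3, SciPy 1.17.1 and matplotlib 3.10.9 were used, with GENCODE M21 and RefSeq annotation of GRCm38.

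The members and lists were chosen with earlier results of these data known. A gene of both lists is not reported here and was left out of their counts and medians. Named are the 5 genes, genes of both lists that reached 1 FPKM in some library, and for each expressed gene the 3 loci of nearest pattern. Genes named at an FPKM under 1 in all libraries (Plg, Cpb2, Itgb3) were added after their values were seen. The alternatives were other amounts added, other scalings, summed rows, a 1.5-fold threshold and other FPKM minima.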

Additional observations from a re-analysis of the deposited data

Results flagged for a closer look

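In 6 of the named genes the PMA ratio had opposite signs in 427 cells and in the libraries labelled SP2bKD. Each condition has 1 library, and this difference was not tested. The named genes here were Plau, Plaur, Plat, 15 of the plasminogen system list and 14 other serpins, with Serpini1 in both lists. The share of all loci with opposite signs was not counted, so the 6 genes are not set against a background. F3 had a log2 ratio of 1.01 in 427 cells and of -0.13 in the libraries labelled SP2bKD. Serpini1 had 0.53 and -0.62, at FPKM values between 0.701 and 1.98 in these 4 libraries. Serpinb8 had 0.34 and -0.47, at FPKM values between 2.94 and 4.47 in these 4 libraries. Serpina3g had -0.20 and 0.63, and it can share fragments with other Serpina3 genes. Serpinf1 had -0.40 and 0.45, at FPKM values below 1 in 427 cells. Ctsb had 0.0142 and -0.0716, which is near to no difference in both.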

How the results depend on the processing

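No paired analysis was possible because each condition has 1 library and no result comes from a test. The depth limits Plat and Serpine2 most, and merged gene models limit Serpinb2. Adding 0.001, 0.1 or 1 to both libraries changed no count of Plau, Plaur and Plat past 2-fold, and no sign of their 18 ratios. Summing the rows of a symbol moved none of these ratios, so it could not change a count or a sign.

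A 1.5-fold threshold gave 3 genes in place of 2 for PMA in 427 cells and 2 in place of 1 in the libraries labelled SP2bKD. For SP2bKD against 427 it gave 1 in place of 0 with DMSO and 2 in place of 1 with PMA. It gave 1 in place of 0 for EICD against GFP and 3 in place of 0 for GFP against SP2bKD. The share of all loci past 1.5-fold was not counted, so these counts are not set against a background. For SP2bKD against 427 with PMA, scaling to the same upper quartile and by the median ratio each gave 2 in place of 1, since Plaur passed 2-fold. Scaling to a sum of 1000000 gave 0 there, and the log2 ratio of Plau reversed from -1.04 to 0.21. The 10 largest loci set that sum. Scaling by the median ratio gave 1 in place of 0 for GFP against SP2bKD. For EICD against GFP, scaling by the sum without the 10 largest loci, an alternative chosen after the data were seen, gave 1 in place of 0, which is Plat.

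With a minimum FPKM of 0.1, the plasminogen system list had 5 genes past 2-fold in place of 3 (PMA in 427 cells), 3 in place of 1 (SP2bKD against 427, DMSO), 4 in place of 2 (the same, PMA), 4 in place of 2 (EICD) and 2 in place of 1 (GFP against SP2bKD). The other serpins had 9 in place of 5, 9 in place of 4, 5 in place of 2 and 11 in place of 7 in the last 4 of these comparisons, and 5 in place of 3 for PMA with the SP2bKD label when scaled by the median ratio. With 1 added, the first list had 0, 1, 1 and 0 in those 4 comparisons, and the other serpins had 3 (DMSO) and 0 (EICD). For PMA in 427 cells the first list then had 2 in place of 3. The share of all loci past 2-fold in either direction, at a minimum of 0.1 and of 10, was 14.8% and 4.71% for PMA in 427 cells, 15.8% and 5.61% for PMA with the SP2bKD label, 13.7% and 2.51% for SP2bKD against 427 with DMSO, 12.7% and 1.87% with PMA, 11% and 1.81% for EICD and 16% and 3.9% for GFP against SP2bKD. At the minimum of 1 these shares were 8.58%, 9.21%, 5.87%, 4.93%, 4.07% and 7.69%.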

Other observations

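Serpinb2 is 1 of 1240 coding genes of GENCODE M21, out of 21951, that have no entry by identifier or symbol in the files. Of these, 874 lie wholly inside a deposited locus on the same strand, as Serpinb2 does, and 725 of the 874 are inside a locus that reached 1 FPKM in some library. Values for such genes are part of a locus that carries another name.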
